A study of Mus musculus with 24 samples.

Results

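The 10 genes described here are well-known targets of the transcription factor p53, measured by RNA sequencing of MOVAS cells. The members, taken by gene symbol, were Cdkn1a, Mdm2, Gdf15, Ccng1, Sesn1, Sesn2, Aen, Bbc3, Bax and Trp53inp1. They make up 10 of the 33034 genes in the deposited table, and all 10 passed the filter on low counts in every fit. MOVAS is a mouse aortic smooth-muscle line, immortalised with the large T antigen of the virus SV40, a protein known to bind p53. The 24 libraries formed 8 groups of 3. ADAM9i cells (given an ADAM9 inhibitor), WT cells, Adam9-KO cells (edited at Adam9) and Rosa26-KO cells (edited at the Rosa26 locus, often used as a control for editing) each received rhCTHRC1 or vehicle. rhCTHRC1 is recombinant human CTHRC1, a secreted matrix protein, and ADAM9 is a metalloprotease of the cell membrane. The labels give no inhibitor name, dose or duration, and they do not say whether the knockout cells were a clone or a pool. Nor do they say that replicates were separate cultures, so the p-values measure only the spread between these libraries, which may be technical.

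p53 is held low in unstressed cells by MDM2, a ubiquitin ligase that is itself a p53 target, and the related protein MDM4 restrains its activity. After DNA damage and other stresses p53 binds response elements near its targets, each element built of paired short repeats called half-sites. The targets then arrest the cell cycle, repair damage, adjust metabolism or start apoptosis, and several of them also answer to other pathways, such as ATF4 and CHOP in the integrated stress response.

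Promoter sequence is shown to place the known p53 consensus relative to the members' start sites. RefSeq promoter windows (GRCm38.p6) of 300 bases, 250 before and 50 after a transcription start, were found for 9 of the 10 genes, in 15 windows. Trp53inp1 had no entry. An exact match to the p53 half-site consensus, searched on both strands with no mismatch allowed, lay in 7 of the 15 windows and in 6 of the genes, against 8.36% of 32817 windows genome-wide. Each match is printed below 5′ to 3′ on the gene's strand, in capitals, with 10 flanking bases on each side and the position of its first base relative to the start.
Cdkn1a (chr17:29090906-29090915, plus strand, -73): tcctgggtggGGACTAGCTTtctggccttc
Cdkn1a (chr17:29090928-29090937, plus strand, -51): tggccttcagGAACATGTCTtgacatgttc
Mdm2 (chr10:117710935-117710944, minus strand, -186): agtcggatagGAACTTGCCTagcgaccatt
Ccng1 (chr11:40755462-40755471, minus strand, -185): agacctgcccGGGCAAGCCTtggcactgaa
Sesn1 (chr10:41887266-41887275, plus strand, -173 from an internal start): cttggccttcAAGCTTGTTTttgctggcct
Aen (chr7:78895937-78895946, plus strand, 11 after the start): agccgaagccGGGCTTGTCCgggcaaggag
Bax (chr7:45467090-45467099, minus strand, -201): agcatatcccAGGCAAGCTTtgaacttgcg

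The Aen match lay in both of the overlapping Aen windows. Cdkn1a was the only member with a pair of exact half-sites close enough to count as a full site (a spacer of 0 to 13 bases was allowed). The spacer of this exact pair was 12 bases, and such full sites lay in 0.0731% of all windows. The bases directly after the second half-site, tgacatgttc, miss the consensus only at their first base. That adjoining pair, with no spacer, was therefore not counted. The exact matches lay by the first Cdkn1a start, and the window of a later start (chr17:29093519-29093818) held no half-site match. The 110 bases before the first Cdkn1a start (chr17:29090869-29090978, plus strand) show both exact half-sites in capitals.
Cdkn1a: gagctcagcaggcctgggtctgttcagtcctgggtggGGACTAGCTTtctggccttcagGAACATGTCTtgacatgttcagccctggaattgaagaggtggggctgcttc

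No half-site match was found in the windows of Gdf15, Sesn2 or Bbc3. The letters TTGCATCA, one form of the composite element bound by ATF4 and C/EBP factors, were in none of the 15 windows, against 0.896% of all windows. A match is a description of sequence, and response elements outside these windows were not searched.

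Library totals were 53135752 to 65833125 counts, and the members had 145 (Gdf15) to 9027 (Sesn2) counts in a library. WT vehicle stood apart on the first principal component, at -119.3 to -114.5 against -7.163 to 54.31 in the other 21 libraries, so member results that rest on it are also given without it or with another vehicle group. Titles of WT libraries also follow another pattern than the rest, and handling and background cannot be told apart there. Adam9 checked the labels: it averaged 140 CPM (counts scaled to library size with TMM factors) in Adam9-KO cells given rhCTHRC1 and 139 CPM in Adam9-KO vehicle, against 284 and 236 CPM in the Rosa26-KO groups, and so was lower but not absent. Adam9 was also low in unedited ADAM9i cells, at 205.7 CPM with rhCTHRC1 and 164.3 CPM in vehicle. Its log2 difference from WT cells was -0.49 ± 0.12 with rhCTHRC1 and -0.61 ± 0.12 under vehicle (SE). A lower Adam9 level was therefore not particular to the edited cells. Summed smooth-muscle markers reached 318 to 925 CPM, but Myh11 and Cnn1, which define contractile muscle, stayed at or below 1.87 CPM in every library. Endothelial markers summed to 2.46 to 27.2 CPM, highest in WT vehicle, and fibroblast markers to 75 to 502 CPM, lowest in WT vehicle. Their part in the members' levels was not tested. In bulk RNA, fewer cells of a type and less RNA per cell cannot be told apart.

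Per transcript length, Bax was the most abundant member, at a mean of 43.7 FPKM over the 8 groups, and Cdkn1a the least, at 4.05 FPKM. Sesn2 (20.95 FPKM), Ccng1 (15.1 FPKM), Mdm2 (12.6 FPKM), Sesn1 (11.8 FPKM) and Trp53inp1 (10.2 FPKM) lay between them, followed by Gdf15 (8.76 FPKM), Bbc3 (8.39 FPKM) and Aen (5.07 FPKM). The members did not vary as one block. The ratio of the highest to the lowest group mean was 28.0 for Gdf15, 5.97 for Sesn1, 5.66 for Sesn2 and 5.48 for Aen. It was 3.61 for Cdkn1a, 3.34 for Trp53inp1, 2.56 for Ccng1, 2.34 for Bax and 1.83 for Mdm2, and only 1.47 for Bbc3. WT vehicle was the highest group for 6 members (Mdm2, Bax, Aen, Sesn2, Gdf15 and Trp53inp1) and the lowest for 2 (Ccng1 and Sesn1). Rosa26-KO cells given rhCTHRC1 were the lowest group for 4 members (Mdm2, Cdkn1a, Sesn2 and Gdf15) and the highest for Sesn1.

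**Figure D1:**
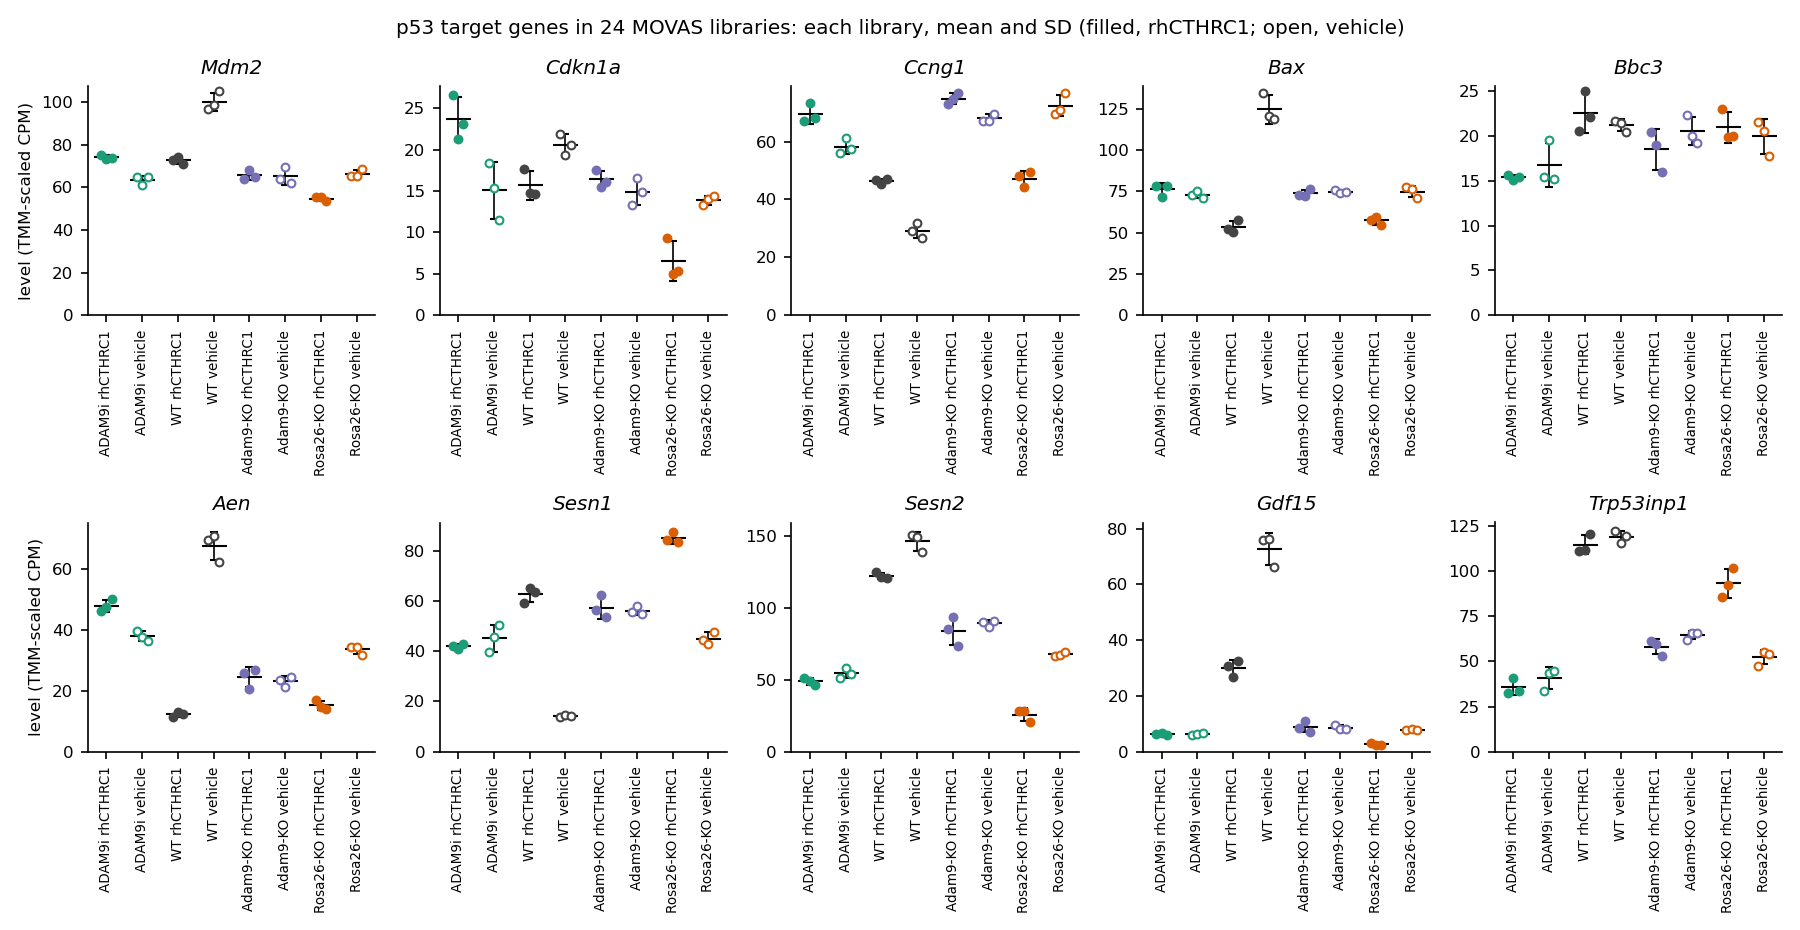
Level of each p53 target in every library, in TMM-scaled CPM on linear axes that start at 0. Points are libraries (filled, rhCTHRC1; open, vehicle), lines are group means and bars are SD, n = 3. Gdf15 averaged 2.59 CPM in Rosa26-KO cells given rhCTHRC1 and 72.7 CPM in WT vehicle, while Bbc3 stayed between 15.4 and 22.6 CPM in all 8 group means.

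Ordered by level, the 8 groups made 7 neighbouring pairs per gene. The share of overlapping pairs over all genes is not given here, so the counts below only describe each member. For Aen, which encodes a nuclease that degrades DNA and RNA in apoptosis, 6 of the 7 pairs had libraries that did not overlap. Gdf15 and Sesn2 had 5 such pairs each. For Bbc3, which encodes the BH3-only protein PUMA, all 7 neighbouring pairs overlapped, so no place in its order was set apart from the next. For Bax, the pore-forming effector of mitochondrial apoptosis, 5 of 7 pairs overlapped: 5 groups lay together at 72.8 to 76.2 CPM, with Rosa26-KO rhCTHRC1 (57.3 ± 2.49 CPM) and WT rhCTHRC1 (53.3 ± 3.72 CPM) below them and WT vehicle (124.6 ± 8.59 CPM) above (SD, n = 3).

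**Figure D2:**
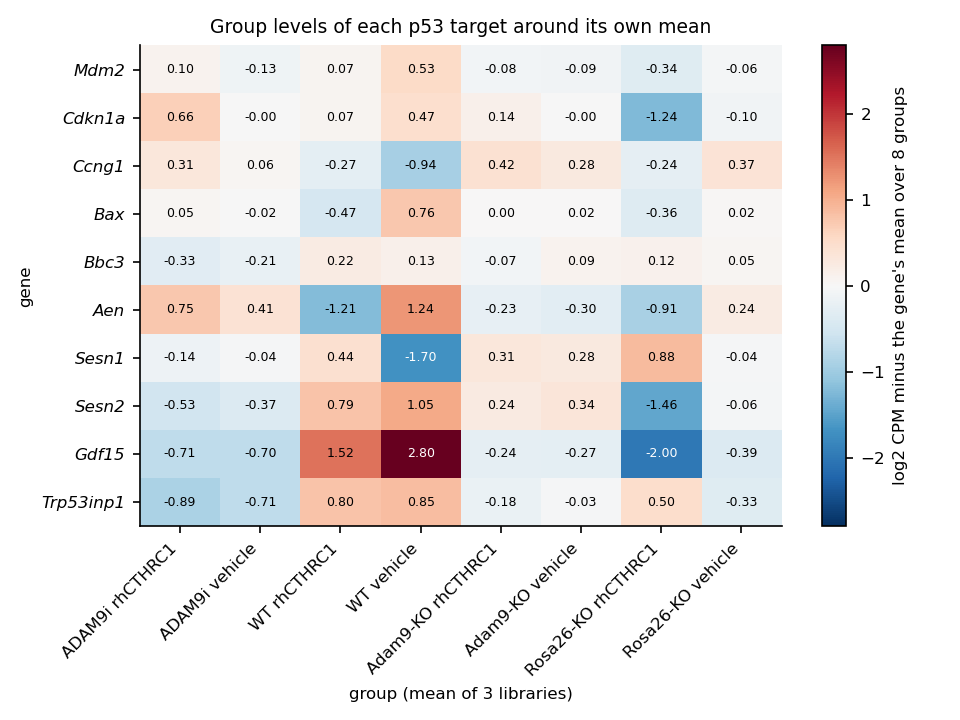
Mean log2 CPM of each p53 target in each group (columns) minus that gene's mean over the 8 groups, on a colour scale with the difference printed in each cell. Red is above and blue is below the gene's own mean. WT vehicle lies at 2.80 for Gdf15 and at -1.70 for Sesn1, and the Adam9-KO groups lie within 0.42 of the mean for every gene.

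The first question was what rhCTHRC1 did to these genes in Rosa26-KO cells, the editing control. Of the 10 members, 7 fell and 2 rose, and Bbc3 did not pass (edgeR quasi-likelihood test, adjusted p under 0.05 over all genes). Of all 18594 genes tested, 45.2% were called, 23.3% lower and 22% higher, so the split was uneven among the members where it was nearly even over all genes. The median log2 change was -0.50 for the members and 0.03 for all genes. Cell type markers moved with this treatment too: the 8 smooth-muscle markers summed to 379 to 390 CPM in Rosa26-KO cells given rhCTHRC1, against 827 to 870 CPM in Rosa26-KO vehicle. Most of that fall was Acta2, at a mean of 40.6 CPM with rhCTHRC1 and 415 CPM in vehicle. Means of Cald1, Smtn, Tagln and Myocd were also lower with rhCTHRC1, and those of Des (8.54 against 4.18 CPM), Cnn1 and Myh11 were higher. The 5 fibroblast markers summed to 483 to 502 CPM with rhCTHRC1, against 303 to 329 CPM in vehicle, most of it Pdgfra. The mean of Lum was lower with rhCTHRC1 (0.449 against 0.656 CPM), and those of Dcn, Col14a1 and Dpt were higher. The 6 endothelial markers summed to 7.15 to 7.80 CPM with rhCTHRC1, against 2.46 to 3.03 CPM in vehicle, most of it Vwf, with Cdh5 at 0 in both groups. Means of Kdr (0.494 against 0.885 CPM) and Tie1 were lower with rhCTHRC1, and those of Pecam1 and Tek were higher. The part of these cell type markers in the Rosa26-KO result was not tested.

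Mdm2 (ENSMUSG00000020184, chr10:117688875-117710758), which closes the negative feedback on p53, had 55.2, 55.4 and 53.6 CPM in Rosa26-KO cells given rhCTHRC1, against 65.4, 65.1 and 68.5 CPM in Rosa26-KO vehicle. The groups did not overlap, and the log2 change was -0.28 ± 0.05 (SE, adjusted p = 0.000112). Cdkn1a (ENSMUSG00000023067, chr17:29090976-29100727) encodes p21, the CDK inhibitor through which p53 arrests the cell cycle. It had 9.36, 4.99 and 5.33 CPM with rhCTHRC1, against 13.3, 13.98 and 14.3 CPM in vehicle. Every treated library was lower, with replicate 1 well above the others, and the log2 change was -1.08 ± 0.18 (adjusted p = 0.000155). Ccng1 (ENSMUSG00000020326, chr11:40748552-40755311), which encodes cyclin G1, a partner of MDM2 and protein phosphatase 2A, had 48.0, 44.3 and 49.3 CPM with rhCTHRC1, against 69.6, 71.0 and 76.7 CPM in vehicle. Its log2 change was -0.62 ± 0.05 (adjusted p = 1.08e-08), with no overlap.

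Among the apoptosis genes, Aen (ENSMUSG00000030609, chr7:78895854-78911209) had 16.8, 14.7 and 14.03 CPM with rhCTHRC1, against 34.4, 34.4 and 31.8 CPM in vehicle, a log2 change of -1.14 ± 0.09 (adjusted p = 1.21e-08). Bax (ENSMUSG00000003873, chr7:45461697-45466898) had 57.7, 59.6 and 54.7 CPM with rhCTHRC1, against 77.4, 76.1 and 71.1 CPM in vehicle, a log2 change of -0.38 ± 0.05 (adjusted p = 1.71e-06). Neither gene overlapped between its groups. Bbc3 (ENSMUSG00000002083, chr7:16308393-16318205) had 23.0, 19.9 and 20.1 CPM with rhCTHRC1, against 21.6, 20.6 and 17.8 CPM in vehicle, and its log2 change of 0.07 ± 0.10 did not pass (adjusted p = 0.603).

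The sestrins, stress proteins that restrain mTORC1, went in opposite directions. Sesn1 (ENSMUSG00000038332, chr10:41809935-41908424) had 84.1, 87.5 and 83.3 CPM with rhCTHRC1, against 44.3, 42.7 and 47.8 CPM in vehicle, a log2 change of 0.92 ± 0.06 (adjusted p = 2.35e-10). Sesn2 (ENSMUSG00000028893, chr4:132492032-132510501), which senses leucine and is also an ATF4 target, changed by -1.39 ± 0.11 in log2 terms (adjusted p = 6.54e-07), and its 3 treated libraries were all below its 3 vehicle libraries. Gdf15 (ENSMUSG00000038508, chr8:70629393-70632456), a secreted stress cytokine, fell by 1.61 ± 0.16 (adjusted p = 9.76e-08), the largest fall of the 10. Trp53inp1 (ENSMUSG00000028211, chr4:11156431-11174379), an autophagy and p53-cofactor gene, had 85.3, 92.4 and 101.5 CPM with rhCTHRC1, against 47.6, 54.9 and 54.3 CPM in vehicle, and rose by 0.83 ± 0.07 (adjusted p = 8.94e-09). Gene spans are on GRCm38 as deposited. Cdkn1a, Sesn1 and Sesn2 each overlap another annotated gene, which had at most 31 counts in any library.

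**Figure D3:**
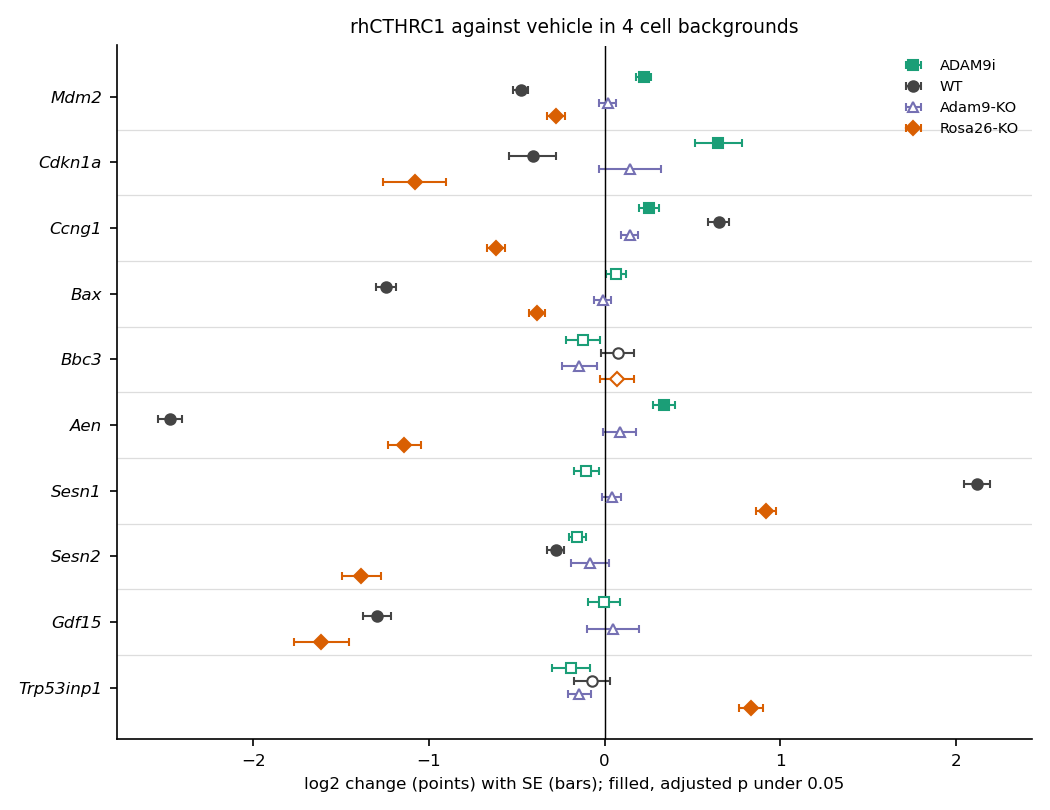
log2 change of each p53 target with rhCTHRC1 against vehicle in the ADAM9i, WT, Adam9-KO and Rosa26-KO backgrounds (points, with SE as bars; filled points have adjusted p under 0.05). In Rosa26-KO 9 genes were called, in Adam9-KO none, and the Aen and Sesn1 points in WT lie farthest from 0, at -2.47 and 2.12.

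In Adam9-KO cells the same treatment moved none of the 10 members past the threshold, and 0% of all genes tested were called. Over all genes, 1387 had an unadjusted p under 0.05, and separately, DESeq2 called 37 genes, no member among them, and limma called 0. The member changes ran from -0.14 to 0.15 on the log2 scale with SE of at most 0.17. Cdkn1a had 17.6, 15.5 and 16.1 CPM in Adam9-KO cells given rhCTHRC1, against 13.3, 16.6 and 14.9 CPM in Adam9-KO vehicle, and the groups overlapped. For Gdf15 the values were 8.67, 10.9 and 7.15 CPM with rhCTHRC1, against 9.67, 8.09 and 8.25 CPM in vehicle, again overlapping. Ccng1 was higher in all 3 treated libraries (72.9, 74.6 and 76.7 CPM, against 67.1, 67.2 and 69.6 CPM in vehicle) and Trp53inp1 lower in all 3 (61.1, 59.8 and 53.2 CPM, against 61.7, 65.7 and 65.6 CPM in vehicle), but neither passed (adjusted p = 0.557 and 0.663).

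The difference between the Adam9-KO and Rosa26-KO responses was tested directly, and 9 of the 10 members passed (7 positive, 2 negative), against 37.9% of all genes (20.1% positive, 17.8% negative). The Adam9-KO response minus the Rosa26-KO response was 1.66 ± 0.22 on the log2 scale for Gdf15, 1.30 ± 0.15 for Sesn2, 1.23 ± 0.13 for Aen and 1.22 ± 0.25 for Cdkn1a. It was 0.76 ± 0.07 for Ccng1, 0.37 ± 0.07 for Bax and 0.29 ± 0.07 for Mdm2. It was negative for the genes that rose in Rosa26-KO, at -0.98 ± 0.10 for Trp53inp1 and -0.88 ± 0.08 for Sesn1. Bbc3 again did not pass (-0.21 ± 0.14, adjusted p = 0.252).

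The knockout backgrounds were also compared within each treatment. With rhCTHRC1 in both, 9 members differed between Adam9-KO and Rosa26-KO (7 higher, 2 lower), against 40.6% of all genes (21% higher, 19.6% lower). For Sesn2 the values were 84.8, 93.2 and 73.6 CPM in Adam9-KO against 28.5, 28.3 and 20.7 CPM in Rosa26-KO, which is 1.69 on the log2 scale. The groups did not overlap, and Gdf15 (1.78), Cdkn1a (1.32), Aen (0.68), Ccng1 (0.66), Bax (0.36) and Mdm2 (0.26) were also higher in Adam9-KO. Trp53inp1 (-0.69) and Sesn1 (-0.57) were lower. Under vehicle 4 members differed (3 higher and 1 lower in Adam9-KO), against 15.2% of all genes (6.37% higher, 8.83% lower). Aen was lower in Adam9-KO vehicle, at 23.7, 21.3 and 24.4 CPM, against 34.4, 34.4 and 31.8 CPM in Rosa26-KO vehicle (-0.55 ± 0.09, adjusted p = 8.06e-04). Sesn1 (0.31 ± 0.06), Sesn2 (0.39 ± 0.11) and Trp53inp1 (0.29 ± 0.07) were higher, though the Sesn2 call (adjusted p = 0.0306) was lost on leaving out any 1 of the 6 libraries, with adjusted p of 0.0731 to 0.103.

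In WT cells rhCTHRC1 changed 8 of the 10 members against WT vehicle (2 higher, 6 lower), where 63% of all genes were called (32.2% higher, 30.8% lower). The member median was -0.34 and that of all genes 0.03. Aen had 11.5, 13.03 and 12.5 CPM in WT cells given rhCTHRC1, against 69.4, 70.9 and 62.3 CPM in WT vehicle, a log2 change of -2.47 ± 0.07 (adjusted p = 1.81e-16). Sesn1 had 59.2, 65.0 and 63.6 CPM with rhCTHRC1, against 13.95, 14.4 and 14.3 CPM in WT vehicle (2.12 ± 0.08, adjusted p = 7.26e-15). These were the largest fall and rise of the 10, with wide gaps between the groups. Bax fell by 1.24 ± 0.06, Gdf15 by 1.29 ± 0.08, Mdm2 by 0.48 ± 0.04, Cdkn1a by 0.41 ± 0.13 and Sesn2 by 0.28 ± 0.05, and Ccng1 rose by 0.65 ± 0.06. The Cdkn1a call (adjusted p = 0.0138) was lost without WT rhCTHRC1 replicate 2 or 3 or WT vehicle replicate 1, at adjusted p of 0.056 to 0.0593. Bbc3 (0.07 ± 0.10) and Trp53inp1 (-0.07 ± 0.10) did not pass.

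Because WT vehicle stood apart, the same WT libraries given rhCTHRC1 were also set against ADAM9i vehicle and Rosa26-KO vehicle. Background and treatment differ together in these comparisons and cannot be told apart. Against ADAM9i vehicle 9 members were called (6 higher, 3 lower), with 50.4% of all genes called (24.6% higher, 25.8% lower). Against Rosa26-KO vehicle 8 were called (5 higher, 3 lower), with 50.1% of all genes called (24.4% higher, 25.7% lower). Aen was lower against all 3 vehicle groups, at -1.62 against ADAM9i vehicle and -1.44 against Rosa26-KO vehicle. Bax was also lower against all 3 (-0.45 and -0.49), and Sesn1 higher (0.47 and 0.48). These 3 genes were the only members that kept both direction and call. Ccng1 was lower against the other vehicle groups (-0.33 and -0.64), while Gdf15 (2.23 and 1.92), Sesn2 (1.16 and 0.85), Trp53inp1 (1.49 and 1.13) and Mdm2 (0.20 and 0.13) were higher, the opposite of their sign against WT vehicle. Cdkn1a gave 0.06 and 0.18, neither of which passed. Bbc3 passed only against ADAM9i vehicle, where it was higher (0.43, adjusted p = 0.000592).

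**Figure D4:**
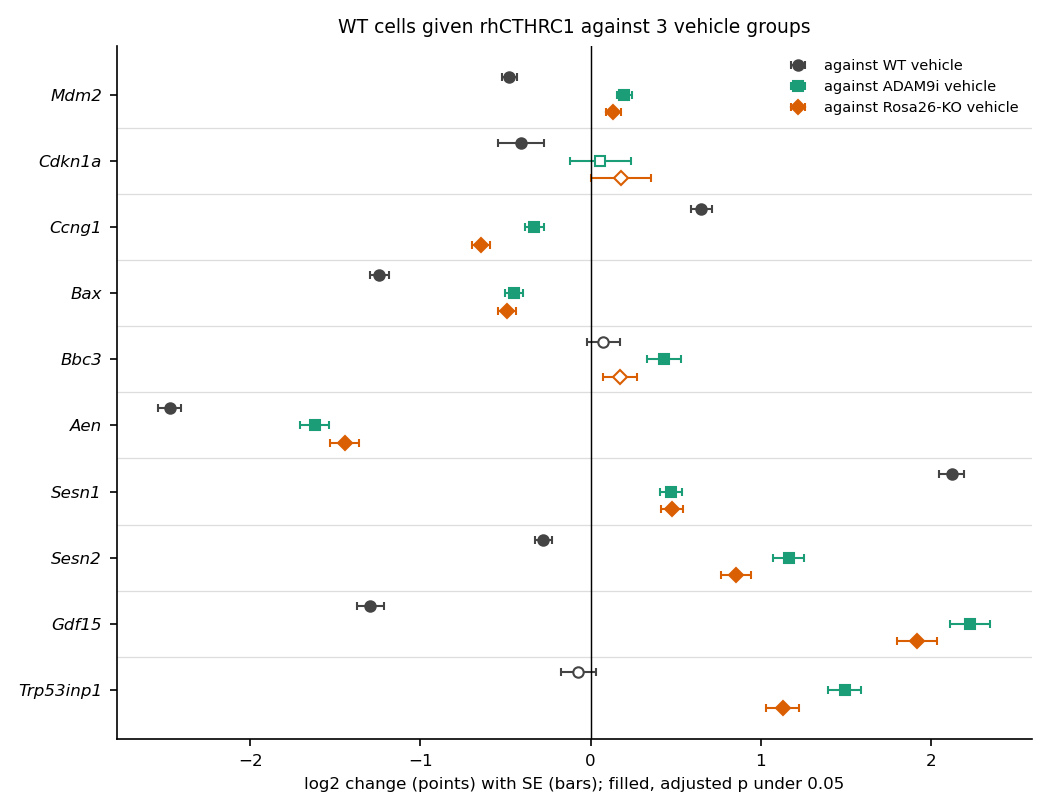
log2 change of each p53 target in WT cells given rhCTHRC1 against WT vehicle, ADAM9i vehicle and Rosa26-KO vehicle (points, with SE as bars; filled points have adjusted p under 0.05). Aen, Bax and Sesn1 are the genes with filled points on one side of 0 for all 3 vehicle groups. Gdf15 lies at -1.29 against WT vehicle but at 2.23 against ADAM9i vehicle.

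In cells given the ADAM9 inhibitor, rhCTHRC1 raised 4 of the 10 members (Cdkn1a, Mdm2, Ccng1 and Aen) and lowered 0, against 3.98% of all genes called (2.66% higher, 1.32% lower). These are the arrest and feedback genes, cyclin G1 and the apoptosis nuclease. The member median, 0.03, was near that of all genes, 0.00. Cdkn1a had 26.6, 21.3 and 23.1 CPM in ADAM9i cells given rhCTHRC1, against 18.4, 15.4 and 11.5 CPM in ADAM9i vehicle, with no overlap (0.65 ± 0.13, adjusted p = 0.0109). Without the first treated replicate this call was lost (adjusted p = 0.0555). Mdm2 had 75.1, 73.3 and 73.6 CPM with rhCTHRC1, against 64.6, 61.0 and 64.6 CPM in vehicle (0.22 ± 0.04, adjusted p = 0.00513). Aen had 46.1, 47.5 and 50.005 CPM with rhCTHRC1, against 39.7, 37.7 and 36.4 CPM in vehicle (0.34 ± 0.06, adjusted p = 0.0046). The calls of Mdm2 and Aen held on leaving out any 1 library. Ccng1 had 67.1, 73.4 and 68.1 CPM with rhCTHRC1, against 56.1, 61.4 and 57.4 CPM in vehicle (0.25 ± 0.06, adjusted p = 0.0174), and its call was lost without rhCTHRC1 replicate 2 or 3 or vehicle replicate 1 or 3 (adjusted p of 0.0543 to 0.088). Gdf15 had 6.46, 6.78 and 5.88 CPM with rhCTHRC1, against 6.08, 6.31 and 6.79 CPM in vehicle, and its change was -0.01 ± 0.09. Without ADAM9i vehicle replicate 1, Sesn2 (-0.20, adjusted p = 0.0497) and Trp53inp1 (-0.32, adjusted p = 0.0273) passed as lower. Over all genes 749 were called, and 397 to 638 on leaving out 1 library.

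The ADAM9i response minus the WT response passed for 7 members (5 positive, 2 negative), against 56% of all genes (27.8% positive, 28.3% negative). It was 2.81 ± 0.09 for Aen, 1.31 ± 0.08 for Bax, 1.29 ± 0.12 for Gdf15, 1.06 ± 0.19 for Cdkn1a and 0.70 ± 0.06 for Mdm2, and -2.23 ± 0.10 for Sesn1 and -0.40 ± 0.08 for Ccng1. Sesn2 (0.12 ± 0.07), Trp53inp1 (-0.12 ± 0.15) and Bbc3 (-0.20 ± 0.14) did not pass, though without ADAM9i vehicle replicate 1 Trp53inp1 did (-0.25, adjusted p = 0.0396). These differences contain the WT vehicle libraries. With rhCTHRC1 in both, which leaves WT vehicle out, 9 members differed between ADAM9i and WT (4 higher, 5 lower), against 54.1% of all genes (28% higher, 26.1% lower). Aen (1.97), Cdkn1a (0.60), Ccng1 (0.59) and Bax (0.53) were higher in ADAM9i, and Gdf15 (-2.23), Trp53inp1 (-1.68), Sesn2 (-1.31), Sesn1 (-0.57) and Bbc3 (-0.54) were lower. Mdm2 did not pass (0.03), and scaled by library size alone it was lower in ADAM9i (-0.10, adjusted p = 0.0443).

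Under vehicle all 10 members differed between ADAM9i and WT (2 higher, 8 lower), against 57.4% of all genes (29.9% higher, 27.5% lower). Gdf15 had 6.08, 6.31 and 6.79 CPM in ADAM9i vehicle, against 75.9, 76.1 and 66.2 CPM in WT vehicle, a log2 difference of -3.51 ± 0.09. Sesn1 (1.66) and Ccng1 (0.99) were higher, and Trp53inp1 (-1.56), Sesn2 (-1.43), Aen (-0.84), Bax (-0.78), Mdm2 (-0.67), Cdkn1a (-0.45) and Bbc3 (-0.35) were lower. With Rosa26-KO vehicle in place of WT vehicle, 3 members passed, against 15.2% of all genes (7.31% higher, 7.92% lower): Trp53inp1 (-0.36), Ccng1 (-0.31) and Sesn2 (-0.31) were lower in ADAM9i vehicle. Rosa26-KO vehicle itself differed from WT vehicle in 9 members (2 higher, 7 lower), against 53.7% of all genes (27.9% higher, 25.8% lower), with Gdf15 at -3.20 ± 0.12, Sesn1 at 1.66 and Ccng1 at 1.31.

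The p53 transcript itself, Trp53, fell with rhCTHRC1 in WT (162 ± 5.57 CPM with rhCTHRC1, 238 ± 5.79 CPM in vehicle, log2 change -0.57 ± 0.04, and -0.59 against ADAM9i vehicle and -0.53 against Rosa26-KO vehicle) and in Rosa26-KO (202 ± 5.74 CPM with rhCTHRC1, 233 ± 6.07 CPM in vehicle, -0.21 ± 0.03). In ADAM9i it was 257 ± 7.24 CPM with rhCTHRC1 and 244 ± 7.50 CPM in vehicle (0.08 ± 0.03, adjusted p = 0.302), and in Adam9-KO 220 ± 4.70 and 223 ± 5.96 CPM in the same order (-0.01 ± 0.03, adjusted p = 0.972; SD, n = 3). The Adam9-KO and Rosa26-KO responses differed by 0.20 ± 0.05 (adjusted p = 0.00305). Mdm4, which restrains p53, rose with rhCTHRC1 in Rosa26-KO (124 CPM with rhCTHRC1, 97.4 CPM in vehicle, 0.35 ± 0.04) while Mdm2 fell there. Transcript levels do not measure p53 protein, which large T antigen and MDM2 are known to affect.

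The rest of the pathway was read from 5 further lists of 102 genes. Of 34 other p53 targets, 7 rose and 13 fell with rhCTHRC1 in Rosa26-KO, 58.8% of the list, beside 45.2% of all genes (22% higher, 23.3% lower), with a median of -0.04. Tigar, a metabolic target, fell by 0.92 ± 0.13, while Ddb2, a DNA-damage sensor, rose by 0.80 ± 0.10 and Dcxr, a sugar reductase, by 0.71 ± 0.16. Of 11 tested regulators of p53, 3 rose and 5 fell, among them Chek1 (-0.55) and Chek2 (-0.37), the checkpoint kinases. Of 23 paralogs and partners of the members, 10 rose and 9 fell. Ccng2, the cyclin G paralog, rose by 1.11 ± 0.06 where Ccng1 fell, and Bmf, a BH3-only gene like Bbc3, rose by 1.44 ± 0.06. Hrk, another BH3-only gene, fell by 1.92 ± 0.62 at levels of 0.110 CPM with rhCTHRC1 and 0.423 CPM in vehicle.

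Of 19 genes that p21 and the DREAM complex are known to repress, 0 rose and 16 fell in Rosa26-KO (median -0.37), led by Mybl2 (-0.95), Rrm2 (-0.68) and Bub1 (-0.57), where Cdkn1a itself fell too. Of all genes, 22% were called higher and 23.3% lower in that response. All 14 ATF4 and CHOP targets fell (median -1.21), with Chac1 at -2.24, Trib3 at -2.12 and Atf3 at -2.04. In Adam9-KO no gene of any of these lists was called. In ADAM9i 4 members rose and 0 of the 34 other p53 targets passed, where 3.98% of all genes were called. For a list of 34 genes, 0 is near that share. Ccnd1 (0.47), Cdk6 (0.29) and Ccne1 (0.28), cyclin and kinase genes of the G1 phase, which p21 restrains, rose there, and Mdm4 fell by 0.16. Chac1 (0.27) and Herpud1 (0.18) of the ATF4 list and Rrm2 (0.23) and Mybl2 (0.19) of the DREAM list rose, and Mki67 fell by 0.13.

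In WT these lists depended on the vehicle group. Against WT vehicle 12 of the 34 other p53 targets were higher and 10 lower, 64.7% of the list beside 63% of all genes. Of all genes, 32.2% were higher and 30.8% lower against WT vehicle. The shares were 24.6% and 25.8% against ADAM9i vehicle, and 24.4% and 25.7% against Rosa26-KO vehicle. Fas, a death receptor, stood at 2.70 against WT vehicle, at -0.11 against ADAM9i vehicle (adjusted p = 0.37) and at 0.28 against Rosa26-KO vehicle (adjusted p = 0.0189). Of the 19 DREAM genes, 14 were higher and 3 lower against WT vehicle, with Ccnb2 at 2.12, Mki67 at 1.59 and Cenpa at 1.19. Against ADAM9i vehicle 1 was higher and 18 lower, and against Rosa26-KO vehicle 5 were higher and 11 lower. All 14 ATF4 and CHOP targets were lower against WT vehicle, while 9 were higher and 2 lower against ADAM9i vehicle, and 9 higher and 4 lower against Rosa26-KO vehicle.

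**Figure D5:**
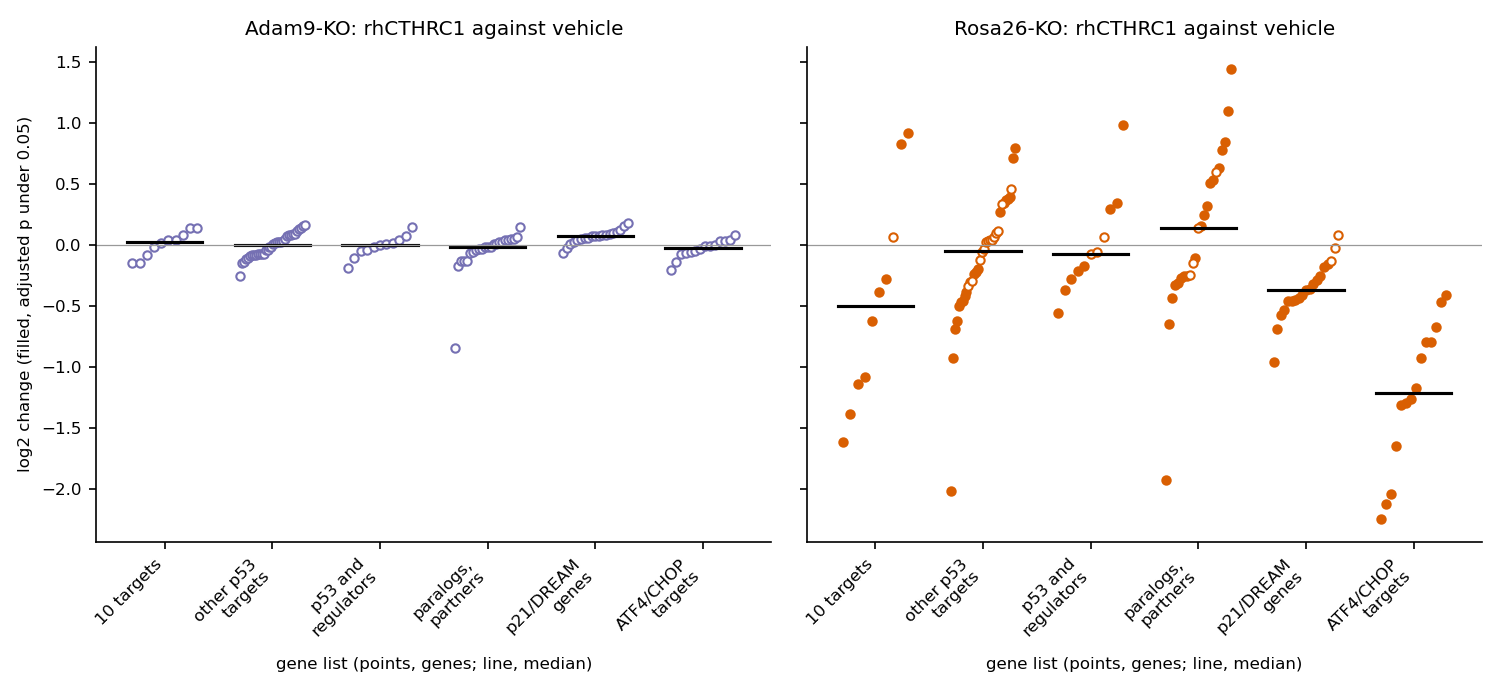
log2 change with rhCTHRC1 against vehicle of each gene in 6 lists, in Adam9-KO (left) and Rosa26-KO (right). Points are genes (filled, adjusted p under 0.05) and lines are list medians. In Rosa26-KO the 14 ATF4 and CHOP targets all lie below 0 and the p53 lists spread to both sides, while no point in Adam9-KO is filled.

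Likeness was measured by Pearson's r over the 8 group means of log2 CPM, against 13502 genes, and is given as a description only, since the 8 points share WT vehicle. The genes most like Gdf15 were Ddit3 (r = 0.986), which encodes CHOP, Chac1 (0.985) and Bbx (0.983), none of them a member. Those most like Sesn2 were Otub2 (0.983), Trib3 (0.976) and Tbc1d31 (0.975). Ddit3, Chac1 and Trib3 are on the ATF4 and CHOP list. Aen was closest to Dph2 (0.999), Lyar (0.998) and Nle1 (0.998), genes of diphthamide synthesis and ribosome biogenesis, and Bax to Dut (0.997), Tfg and Zc3h15. For Sesn1 the closest were Dcaf11 (0.996), Gper1 and Pias3, for Trp53inp1 AW549877 (0.998) and Parp4, and for Ccng1 Pxdn (0.991), Pms1 and S100a11. Mdm2 was closest to Mfn1 (0.988), Rnd1 and Alg1, Bbc3 to 4931406P16Rik (0.973), Acd and Apba1, and Cdkn1a to Gadd45g (0.964), Nt5c3 and Sipa1l3.

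Between members, Gdf15 and Sesn2 ran together (r = 0.913, and 0.926 without WT vehicle). So did Aen and Bax (0.887 and 0.872) and Bbc3 and Trp53inp1 (0.905 and 0.923), in the same order. For Bbc3 all 7 neighbouring pairs of groups overlapped, so its order of groups is not resolved. Sesn1 ran against Bax (-0.934, and -0.754 without WT vehicle) and against Aen (-0.849, and -0.8725 without it). For Aen and Trp53inp1, r was -0.352 over the 8 groups and -0.991 without WT vehicle. For Ccng1 and Bax it was -0.394 and 0.929, in the same order. Cdkn1a and Mdm2, the arrest and feedback genes, had r = 0.736 over the 8 groups and 0.909 without WT vehicle, whereas for Cdkn1a and Ccng1 it was 0.0401 over 8 groups and 0.576 without it.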

How the data were processed

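Libraries of MOVAS RNA came from a stranded TruSeq kit for total RNA, sequenced from both ends at 150 bases, per the labels. HISAT2, StringTie, DESeq2 and the build GRCm38 appear in the submitters' processing notes, with no version. The annotation, strand handling and the counting of reads or pairs were not given in the sources used here. Raw counts per gene, one column for each library, are in the table the authors deposited. FPKM values, scaled by the authors to gene length and mapped fragments, stand beside them. No column of samples was left unused (0).

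Counts were analysed with edgeR 4.0.16 (limma 3.58.1, R 4.3.3). WT with ADAM9i, and Rosa26-KO with Adam9-KO, were fitted apart, with 12 libraries and 8 residual degrees of freedom each; this grouping was made here. After filterByExpr 18816 and 18594 genes were tested, and 19891 in comparisons that used all 24 libraries. Groups were compared by the robust quasi-likelihood F test after TMM scaling, two-sided, in 11 comparisons, with Benjamini-Hochberg adjustment over all genes and a threshold of 0.05. SE is the log2 change divided by the root of F. Levels are CPM scaled by TMM over all libraries. Fits were tested on simulated data.

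Members and lists were chosen with earlier results of these data known. The text names the 10 members, Trp53, Mdm4 and Adam9, from each list up to 3 called genes of mean CPM at least 1 with the largest changes in each response, and for each member the 3 most like genes, of which 1 is not reported here. From the WT response most list genes the rule names are not printed. Promoter sequences are from RefSeq (GRCm38.p6). Alternatives were other scalings, DESeq2 1.42.0, limma on log2(FPKM + 1) for genes that reached an FPKM of 1 in 3 or more libraries, no filter, all libraries in the fit, only the 2 groups compared, the replicate number as a block, other vehicle groups, and leaving out each library. Figures were drawn with matplotlib 3.10.9.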

Additional observations from a re-analysis of the deposited data

Results flagged for a closer look

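For 9 of the 10 p53 targets the response to rhCTHRC1 differed between Adam9-KO and Rosa26-KO cells in a test of the difference itself, which 37.9% of all genes passed. The log2 difference, Adam9-KO response minus Rosa26-KO response, was 1.66 for Gdf15, 1.30 for Sesn2, 1.23 for Aen, 1.22 for Cdkn1a, 0.76 for Ccng1, 0.37 for Bax and 0.29 for Mdm2, all of which fell in Rosa26-KO. It was -0.98 for Trp53inp1 and -0.88 for Sesn1, which rose there.

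The same test between ADAM9i and WT cells passed for 7 targets and for 56% of all genes, so the count of targets is near that of genes at large. The ADAM9i response minus the WT response was 2.81 for Aen, 1.31 for Bax, 1.29 for Gdf15, 1.06 for Cdkn1a, 0.70 for Mdm2, -0.40 for Ccng1 and -2.23 for Sesn1. These values rest on the WT vehicle libraries, which stood apart from the other 21 libraries. Set against ADAM9i vehicle instead, WT cells given rhCTHRC1 gave 2.23 for Gdf15, 0.20 for Mdm2, 0.06 for Cdkn1a and -0.33 for Ccng1. Each of these signs was the opposite of that against WT vehicle, while Aen, Bax and Sesn1 kept theirs. Background and treatment differ together there, and the cause of the change was not tested.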

How the results depend on the processing

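DESeq2 and RLE scaling changed no member's call in any of the 11 comparisons (110 of 110 member results each). Leaving out 1 library at a time, the number of members called stayed at 9 in the Rosa26-KO response, 0 in the Adam9-KO response, 9 in their difference, 9 between Adam9-KO and Rosa26-KO with rhCTHRC1, 9 between ADAM9i and WT with rhCTHRC1, 10 between ADAM9i and WT vehicle and 9 between Rosa26-KO and WT vehicle. It was 7 to 8 in the WT response, 3 to 5 in the ADAM9i response, 7 to 8 in their difference and 3 between Adam9-KO and Rosa26-KO vehicle. With Rosa26-KO vehicle in place of WT vehicle the count for ADAM9i vehicle was 3, and Aen (0.18), Ccng1 (-0.31) and Cdkn1a (0.12) changed sign. For WT cells given rhCTHRC1, ADAM9i vehicle and Rosa26-KO vehicle in place of WT vehicle turned Ccng1 (-0.33 and -0.64), Cdkn1a (0.057 and 0.18), Gdf15 (2.23 and 1.92), Mdm2 (0.20 and 0.13), Sesn2 (1.16 and 0.85) and Trp53inp1 (1.49 and 1.13); the cause was not tested. Mdm2 between ADAM9i and WT with rhCTHRC1 was -0.10 by library size alone and -0.10 by limma on FPKM.

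The Cdkn1a call in WT was lost with all 24 libraries in the fit (adjusted p = 0.0636), by library size alone (0.146), by limma (0.162) and without any 1 of 3 libraries (0.056 to 0.0593). The Sesn2 call in WT was lost by library size alone (0.0841) and by limma (0.109), and its call between Adam9-KO and Rosa26-KO vehicle without the filter (0.0858). Bbc3 passed in WT by library size alone (log2 change 0.25, adjusted p = 0.027) and by limma (log2 change 0.23, adjusted p = 0.0205). Scaling by library size alone moved the median of all genes in the WT response to 0.21, against 0.03 under TMM.

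Of all genes, DESeq2 called 1210 in the ADAM9i response, against 749 by edgeR, and 397 to 638 were called on leaving out 1 library. With Rosa26-KO vehicle in place of WT vehicle 3031 were called for ADAM9i vehicle, against 10804. Between Adam9-KO and Rosa26-KO vehicle 1760 and 1788 were called without Adam9-KO vehicle replicate 1 or 2, against 2825. In the Adam9-KO response 3 were called without Adam9-KO rhCTHRC1 replicate 1.

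No pairing by replicate number was seen in the values: same-numbered libraries deviated together with r of -0.0123 to 0.0492. This cannot show whether the cultures were handled in pairs. With the replicate number as a block, the members called were 9 in the Rosa26-KO response, 0 in the Adam9-KO response, 8 in WT and 4 in ADAM9i. The block added 1 call, Bbc3 between Adam9-KO and Rosa26-KO with rhCTHRC1 (-0.19, adjusted p = 0.0434).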
